A study of Rattus norvegicus with 30 samples.

Results

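The insulin response genes of the liver described here are the insulin receptor gene Insr, the receptor substrate genes Irs1 and Irs2, the transcription factor gene Foxo1, and Igfbp1 and Igfbp2, which encode binding proteins of the insulin-like growth factors. They were measured in 30 female Sprague-Dawley rats aged 10 weeks, with 1 array per rat for RNA from the left lobe of the liver. Every probe set annotated to one of these symbols alone was taken, which gave 9 probe sets for the 6 genes among 31042 probe sets in all, 20826 of which carry 1 gene symbol. No probe set that shares several symbols held a member. Rats handled for 1 day (n = 10) were weighed, placed in a Broome restrainer, gavaged with water and bled from the tail vein. Rats handled for 4 days (n = 10) were also weighed and restrained, were gavaged with water on each of 4 days and were bled on the last. Control rats (n = 10) were left unhandled. The labels give 24 hours for the controls and for the rats handled for 1 day and 96 hours for the rats handled for 4 days. No unhandled rats stood beside the later time, so the number of handling days and the time of sampling cannot be told apart. The labels name no transgene or deletion and no compound other than water.

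Insulin binds its receptor on the hepatocyte, the receptor phosphorylates the substrates Irs1 and Irs2, and these recruit phosphatidylinositol 3-kinase, which leads to activation of the kinase Akt. Akt phosphorylates Foxo1 and keeps it out of the nucleus. When insulin is low, Foxo1 stays in the nucleus and drives genes of the fasted liver, among them Igfbp1 and Irs2, and Igfbp2 is also high in the fasted liver. Igfbp1 and Igfbp2 are secreted and hold insulin-like growth factors in the circulation and in tissue.

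Control rats 1, 2 and 3 stood apart from all other rats and are shown separately. All 3 of them lay below the other 27 rats (10 handled for 1 day, 10 handled for 4 days and control rats 4 to 10) in 941 of 31042 probe sets (3.03%) and above them in 915 (2.95%). The summed intensity of the hepatocyte markers ran from 324 to 350 after 1 day, 317 to 365 after 4 days, 316 to 351 in control rats 1 to 3 and 320 to 360 in control rats 4 to 10. The summed markers of Kupffer cells, sinusoidal endothelium, stellate cells, bile duct, pancreas, fat, red blood cells and lymphocytes overlapped between the handled and the control rats in all 8 lists, and of their 42 measured genes only Nkg7, a gene of cytotoxic lymphocytes, passed the test (log2 fold change -0.42, handled 4 days). Between control rats 1 to 3 and control rats 4 to 10 the sums of the sinusoidal endothelium did not overlap: its 5 markers summed to at most 16.2 in control rats 1 to 3 and to at least 17.4 in control rats 4 to 10. After 4 days they summed to 14.8 to 18.8. The 7 pancreatic markers summed to 1.55 to 3.57 after 1 day, 1.12 to 3.29 after 4 days, 1.99 to 5.33 in control rats 1 to 3 and 0.848 to 4.11 in control rats 4 to 10. Since whole tissue was measured, fewer cells of a type and less RNA per cell cannot be told apart.

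Igfbp1, Igfbp2 and Irs2 were the 3 members in which control rats 1, 2 and 3 all lay below every other rat, and no member lay above. Intensities are on a linear scale on which each array has a mean of 1, and levels are compared only within a probe set. The 3 rats were seen to stand apart in these data, so their values are a description with no test. The plot of the members by rat shows all 9 probe sets.

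**Figure D1:**
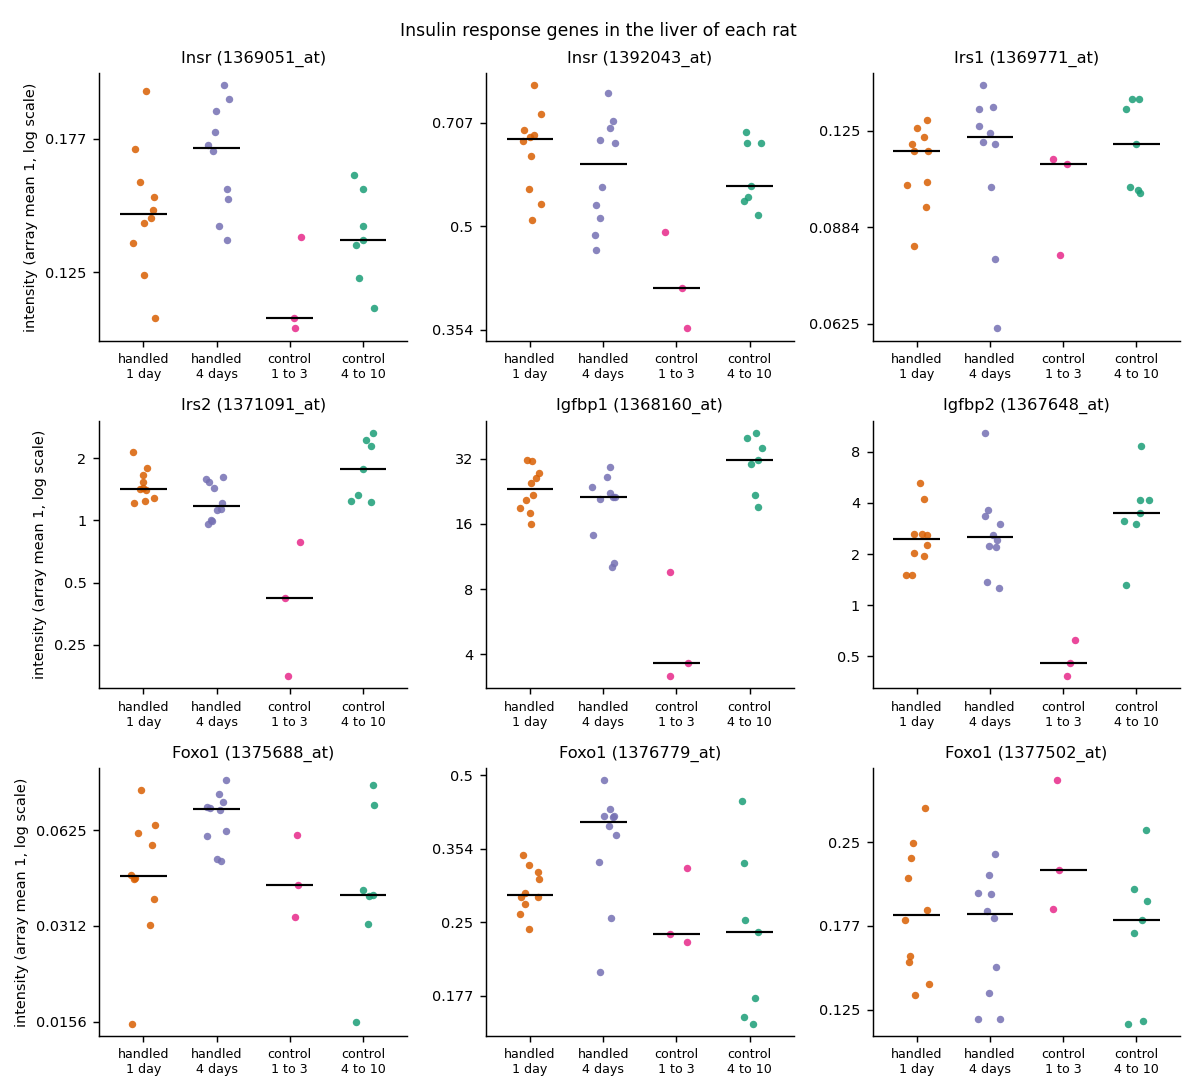
Intensity of each of the 9 probe sets in each rat (points, log-scaled axis, each array scaled to a mean of 1), by group, with the median of each group as a bar. Control rats 1 to 3 lie below all other rats for Irs2, Igfbp1 and Igfbp2 and overlap them for Insr, Irs1 and Foxo1.

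Igfbp1 (probe set 1368160_at), which is made mainly by the liver and is shut off by insulin, was measured at an intensity of 3.17, 3.65 and 9.63 in the 3 rats, in the order 1, 2, 3. In control rats 4 to 10 its lowest, median and highest intensities were 19.2, 31.6 and 42.2. Rat 3 lay closest to the others, just under the lowest of the 27 rats at 10.1, while rats 1 and 2 lay well below it. On average the 3 rats were 6.35-fold lower than control rats 4 to 10, a difference of -2.67 in mean log2 intensity. Only 35 probe sets (0.113% of all tested) had a lower difference, and the median over all probe sets was -0.01.

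Igfbp2 (1367648_at) had 0.384, 0.459 and 0.626 in control rats 1, 2 and 3. Its lowest, median and highest intensities were 1.31, 3.50 and 8.62 in control rats 4 to 10. The gap to the other rats was wider than for Igfbp1, since the lowest of the 27 had 1.26. The 3 rats were 7.30-fold lower than control rats 4 to 10 (-2.87 on the log2 scale), and 27 probe sets had a lower difference.

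Irs2 (1371091_at), the substrate that the fasted liver makes more of, had 0.423, 0.176 and 0.790 in control rats 1, 2 and 3. In control rats 4 to 10 it had a lowest, median and highest intensity of 1.23, 1.78 and 2.66. The 3 rats were 4.55-fold lower (-2.18 on the log2 scale) and spread more widely among themselves than the other groups, with an SD of 1.09 on the log2 scale against 0.49 in control rats 4 to 10. Rat 2 was the lowest for Irs2, and rat 1 was the lowest for both binding proteins. Rat 3 was the nearest to the other rats in all 3 genes. For Irs2, 63 probe sets (0.203%) had a lower difference.

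Insr, Irs1 and Foxo1 overlapped with the other rats in every probe set. The brighter Insr probe set (1392043_at) had 0.406, 0.490 and 0.355 in these rats. Control rats 4 to 10 had a lowest, median and highest of 0.519, 0.572 and 0.685. All 3 rats were thus under the other control rats, but rat 2 lay inside the range of the rats handled for 4 days, which began at 0.462. The difference in mean log2 intensity was -0.53, and 9.48% of all probe sets had a lower one. The second Insr probe set (1369051_at) differed by -0.21 and Irs1 (1369771_at) by -0.24. Foxo1 ran the other way, with differences of 0.09, 0.15 and 0.47 in 1375688_at, 1376779_at and 1377502_at. In the last of these, control rat 2 was the highest of all 30 rats at 0.323.

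The sequences at the gene starts of Igfbp1, Igfbp2 and Insr are given because Igfbp1 and Igfbp2 were low together in control rats 1 to 3 and because FoxO factors are known to act at the start of Igfbp1. RefSeq promoters of build GRCr8 (250 bases before the start and 50 after it) were found for 5 of the 6 members, all but Irs2. Both strands were searched for CAAAACA, the core of the insulin response element (or TGTTTTG, its reverse complement), and for GTAAACA, a core bound by the FoxO family (or TGTTTAC). The first was held by 6.28% of 33469 promoters and the second by 3.78%. Igfbp1 held the first core once, 121 to 115 bases before the start, and Insr held the second once, 100 to 94 bases before the start. In the windows of Igfbp2, Irs1 and Foxo1 neither core was found. Capitals mark the cores in the sequences below, which run 5′ to 3′ along the gene's strand.
Igfbp1, chr14:86261027-86261326, plus strand: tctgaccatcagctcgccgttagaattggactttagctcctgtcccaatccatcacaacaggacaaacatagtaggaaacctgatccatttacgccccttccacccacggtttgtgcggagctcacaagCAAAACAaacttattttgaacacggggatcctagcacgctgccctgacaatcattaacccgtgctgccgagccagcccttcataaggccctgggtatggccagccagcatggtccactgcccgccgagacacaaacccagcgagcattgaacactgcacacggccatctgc
Igfbp2, chr9:81864561-81864860, plus strand: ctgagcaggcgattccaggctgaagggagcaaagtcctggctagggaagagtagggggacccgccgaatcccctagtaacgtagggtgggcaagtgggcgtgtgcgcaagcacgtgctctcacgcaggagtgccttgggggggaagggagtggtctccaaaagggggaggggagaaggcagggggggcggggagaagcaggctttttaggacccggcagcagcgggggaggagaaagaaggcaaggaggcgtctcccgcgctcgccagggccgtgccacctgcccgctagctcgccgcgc
Insr, chr12:6128754-6129053, minus strand: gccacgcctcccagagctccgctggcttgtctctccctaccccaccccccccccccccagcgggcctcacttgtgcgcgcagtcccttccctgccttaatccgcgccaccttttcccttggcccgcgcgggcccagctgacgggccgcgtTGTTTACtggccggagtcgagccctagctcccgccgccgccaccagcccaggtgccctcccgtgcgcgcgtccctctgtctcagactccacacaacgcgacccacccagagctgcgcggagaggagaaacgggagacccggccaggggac
A match is a description of the letters in the window and not of binding.

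Each handled group was compared with the controls to find the genes that handling changed. With all 30 rats in limma's fit and Benjamini-Hochberg adjustment over all probe sets, 28 of 31042 probe sets (0.0902%) passed an adjusted p under 0.1 after 1 day of handling and 204 (0.657%) after 4 days. None of the 9 member probe sets passed in either comparison. Between 4 days and 1 day 0 probe sets passed (0.0%), members included. An unadjusted p under 0.05 was found for 1551, where 1552 would be found with no difference between the groups. This count moved with the setting, from 1419 without rat 5 handled for 4 days to 1884 without control rats 1 to 3. The t-test of the study's methods gave 1836, and 0 after adjustment as well. Without control rats 1 to 3, 102 probe sets (0.329%) passed after 1 day, 257 (0.828%) after 4 days and 0 (0.0%) between the handled groups, and again no member did.

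Igfbp1 had a lowest, median and highest intensity of 16.0, 23.3 and 31.6 after 1 day and of 10.1, 21.4 and 29.2 after 4 days, against 3.17, 26.2 and 42.2 in all 10 control rats. Control rats 1 to 3 were below all 20 handled rats, control rats 6, 9 and 10 (lowest 36.0, highest 42.2) were above all of them, and the other 4 had 19.2 to 31.6. The log2 fold change was 0.40 ± 0.38 (SE, limma, adjusted p = 0.781) after 1 day and 0.11 ± 0.38 (adjusted p = 0.947) after 4 days. Against control rats 4 to 10 alone the sign turned, to -0.40 ± 0.21 (adjusted p = 0.627) and -0.69 ± 0.21 (adjusted p = 0.161). In that comparison 9 of 10 rats handled for 1 day and 10 of 10 handled for 4 days lay under the control median. Leaving out control rat 1 alone or control rat 2 alone was enough to turn the 4-day value, to -0.16 and -0.14.

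Irs2 had a lowest, median and highest intensity of 1.21, 1.43 and 2.14 after 1 day and of 0.964, 1.18 and 1.63 after 4 days, against 0.176, 1.28 and 2.66 in the 10 control rats. The handled rats again fell inside the control range. Its log2 fold change was 0.41 ± 0.32 (SE, limma, adjusted p = 0.728) after 1 day and 0.14 ± 0.32 (adjusted p = 0.914) after 4 days. Once control rats 1 to 3 were left out these values were -0.24 ± 0.16 (adjusted p = 0.734) and -0.51 ± 0.16 (adjusted p = 0.188), with 6 of 10 rats handled for 4 days below all 7 control rats. The 4-day value was -0.02 without control rat 1 alone and -0.16 without control rat 2 alone.

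Igfbp2 had a lowest, median and highest intensity of 1.50, 2.44 and 5.24 after 1 day and of 1.26, 2.51 and 10.3 after 4 days, against 0.384, 3.06 and 8.62 in the control rats. The highest value of all 30 rats was that of rat 5 handled for 4 days. The log2 fold changes of 0.35 ± 0.46 (SE, limma, adjusted p = 0.856) after 1 day and 0.48 ± 0.46 (adjusted p = 0.737) after 4 days became -0.51 ± 0.35 (adjusted p = 0.743) and -0.38 ± 0.35 (adjusted p = 0.749) without control rats 1 to 3. The residual SD of Igfbp2 in the fit of all rats, 1.07 on the log2 scale, was above that of 99.6% of probe sets, and those of Igfbp1 (0.884) and Irs2 (0.750) were above 99.1% and 97.5%. The median over all probe sets was 0.371. Over the 27 rats without control rats 1 to 3 the SDs of the 3 genes were 0.746, 0.505 and 0.387.

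**Figure D2:**
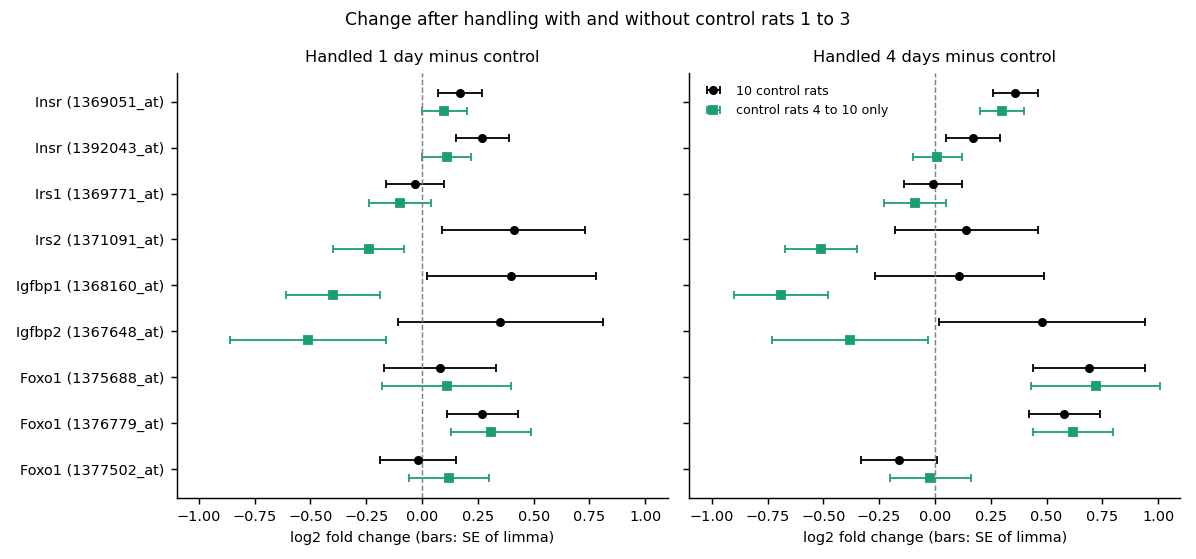
Log2 fold change of each member probe set after 1 day (left) and 4 days (right) of handling against all 10 control rats (black circles) or control rats 4 to 10 alone (green squares), with bars for the SE from limma. The values of Irs2, Igfbp1 and Igfbp2 lie above 0 with all control rats and below 0 without control rats 1 to 3. Those of both Insr probe sets, of Irs1 and of 1375688_at and 1376779_at (Foxo1) keep their sign. The value of 1377502_at (Foxo1) turns after 1 day and keeps its sign after 4 days.

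Insr and Foxo1 each had a probe set close to the threshold after 4 days of handling. Insr 1369051_at had a lowest, median and highest intensity of 0.111, 0.145 and 0.200 after 1 day and of 0.136, 0.172 and 0.203 after 4 days, against 0.108, 0.135 and 0.161 in the control rats. After 4 days 6 of 10 rats were above every control rat and all 10 were above the control median. The log2 fold change was 0.36 ± 0.10 (SE, limma, p = 0.000821, adjusted p = 0.108), or 0.30 ± 0.10 (adjusted p = 0.236) without control rats 1 to 3. After 1 day it was 0.17 ± 0.10 (adjusted p = 0.627). The adjusted p fell below the threshold when 1 of 5 single rats was left out: 0.0893 without control rat 4, 0.0785 without control rat 7, 0.0959 and 0.0951 without rats 3 and 5 handled for 1 day, and 0.0865 without rat 1 handled for 4 days.

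The other Insr probe set, 1392043_at, did not give the same picture. Its lowest, median and highest intensities were 0.510, 0.670 and 0.801 after 1 day and 0.462, 0.615 and 0.780 after 4 days, against 0.355, 0.548 and 0.685 in the control rats. The log2 fold change was larger after 1 day (0.27 ± 0.12, SE, limma, adjusted p = 0.479) than after 4 days (0.17 ± 0.12, adjusted p = 0.621). Against control rats 4 to 10 alone it was 0.11 and 0.01. Across the 27 other rats the log2 intensities of the 2 Insr probe sets had no correlation that passed the test (Pearson's r = -0.13, permutation p = 0.528, adjusted over 4 pairs of probe sets 0.637; Spearman's rho = -0.03, permutation p = 0.885, adjusted 0.885). 1369051_at is the dimmer one and was above the median of its own array in 25 of 30 rats, where the array medians ran from 0.118 to 0.125.

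Foxo1 1376779_at had a lowest, median and highest intensity of 0.242, 0.284 and 0.343 after 1 day and of 0.198, 0.402 and 0.488 after 4 days, against 0.155, 0.238 and 0.443 in the control rats. After 4 days 8 of 10 rats had 0.332 or more, rat 1 had 0.255, and rat 2, the only one under the control median, had 0.198. The log2 fold change was 0.27 ± 0.16 (SE, limma, adjusted p = 0.642) after 1 day and 0.58 ± 0.16 (p = 0.00140, adjusted p = 0.131) after 4 days. With a single rat left out and control rats 1 to 3 kept in the fit, the 4-day value passed the threshold without control rat 7, the highest control (adjusted p = 0.0423), and without rat 2 handled for 4 days (adjusted p = 0.0607). Against control rats 4 to 10 it was 0.62 ± 0.18 (adjusted p = 0.146). Between 4 days and 1 day the difference was 0.31 ± 0.16 (adjusted p = 0.992), with 7 of 10 rats handled for 4 days above all rats handled for 1 day.

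The dimmest Foxo1 probe set, 1375688_at, was under the median of its array in all 30 rats. Its intensities were 0.0154, 0.0447 and 0.0838 (lowest, median, highest) after 1 day and 0.0498, 0.0730 and 0.0895 after 4 days, against 0.0156, 0.0398 and 0.0869 in the control rats. After 4 days all 10 rats were above the control median, and the log2 fold change was 0.69 ± 0.25 (SE, limma, adjusted p = 0.257). The third, 1377502_at, had a log2 fold change of -0.02 ± 0.17 (adjusted p = 0.980) with 1 day and -0.16 ± 0.17 (adjusted p = 0.788) after 4 days, with medians of 0.185 and 0.186 against 0.193 in the control rats. So 2 of the 3 Foxo1 probe sets were higher after 4 days without passing the test and the third was not. Over the 27 rats, the correlation of 1375688_at and 1376779_at did not pass either (r = 0.09, permutation p = 0.637, adjusted 0.637; rho = 0.10, p = 0.614, adjusted 0.819). For 1376779_at and 1377502_at r was -0.20 (permutation p = 0.305, adjusted 0.61), and for 1375688_at and 1377502_at it was 0.39 (permutation p = 0.0436, adjusted 0.175). The brightest, 1376779_at, stands for Foxo1 in the comparisons between genes below, and no correlation of it with the other Foxo1 probe sets passed.

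Irs1, the other main substrate of the receptor, had close medians in the 3 groups. Its single probe set had medians of 0.116 after 1 day and 0.122 after 4 days, against 0.112 in the control rats, and was above its array's median in only 11 of 30 rats. The lowest value of all, 0.0615, was in a rat handled for 4 days. The log2 fold changes were -0.03 ± 0.13 (SE, limma, adjusted p = 0.967) after 1 day and -0.01 ± 0.13 (adjusted p = 0.982) after 4 days. Their 95% intervals, -0.30 to 0.24 and -0.28 to 0.25, leave room for small differences either way.

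Each array also holds a 3′ and a 5′ probe set for Gapdh, and the 3′ signal over the 5′ signal, which tells how far RNA or its copies are shortened, was higher in handled rats. On the log2 scale it was 0.66 to 0.83 after 1 day and 0.70 to 0.96 after 4 days, against 0.64 to 0.69 in control rats 1 to 3 and 0.55 to 0.70 in control rats 4 to 10. With this ratio as a covariate, the 4-day log2 fold change of Insr 1369051_at was 0.33 ± 0.13 (SE, limma, adjusted p = 0.503) and that of Foxo1 1376779_at was 0.50 ± 0.21 (adjusted p = 0.559). Both values stayed close to those without it while their errors grew.

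Among the 27 rats other than control rats 1 to 3, the members were compared pair by pair over log2 intensities, with the brightest probe set for each gene, 15 pairs in all. Igfbp1 and Irs2 varied together from rat to rat (r = 0.66, permutation p = 0.00022, adjusted 0.0033; rho = 0.62, permutation p = 0.0008, adjusted 0.012). Without the 2 rats farthest from the median of Irs2, r was 0.56 (adjusted permutation p = 0.0435). Within the groups r was 0.76 after 1 day, 0.27 after 4 days and 0.75 in control rats 4 to 10. With the group means taken off and rats permuted within their own group, a test added after the data were seen, r was 0.53 (adjusted permutation p = 0.0423). The weaker relation after 4 days was not tested against the others. Control rats 4 to 10 held the rats highest in both: rat 10 had 42.2 for Igfbp1 and 2.66 for Irs2.

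Foxo1 1376779_at and Irs2 ran against each other over the 27 rats together (r = -0.57, permutation p = 0.00274, adjusted 0.0137; rho = -0.57, permutation p = 0.00244, adjusted 0.0183). Without the 2 rats farthest in Irs2, r was -0.47 (adjusted permutation p = 0.13). Their group means also ran in opposite order: the mean log2 intensity of Foxo1 was -1.78 after 1 day, -1.48 after 4 days and -2.10 in control rats 4 to 10, and that of Irs2 was 0.58, 0.31 and 0.82. With the group means taken off r was -0.39 (adjusted permutation p = 0.318), so the pair did not pass within the groups, where r was -0.40 after 1 day, -0.06 after 4 days and -0.62 in control rats 4 to 10. Irs1 and Igfbp1 also passed by r (0.61, permutation p = 0.00136, adjusted 0.0102) but not by rank (rho = 0.41, permutation p = 0.0343, adjusted 0.129). Without the 2 rats farthest in Irs1, both handled for 4 days, r was 0.27 (adjusted permutation p = 0.392). Passing the test over the 27 rats thus depended on those 2 rats. With the group means taken off r was 0.65 (adjusted permutation p = 0.0411). Within the groups it was 0.73 after 1 day, 0.91 after 4 days and -0.21 in control rats 4 to 10. No pair of Igfbp2 with the other 5 members passed (r from -0.06 to 0.34, lowest adjusted permutation p 0.184), and Igfbp1 and Igfbp2, both low in control rats 1 to 3, had r = 0.16 among the other rats (permutation p = 0.435, adjusted 0.653; rho = 0.16, permutation p = 0.416, adjusted 0.520).

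**Figure D3:**
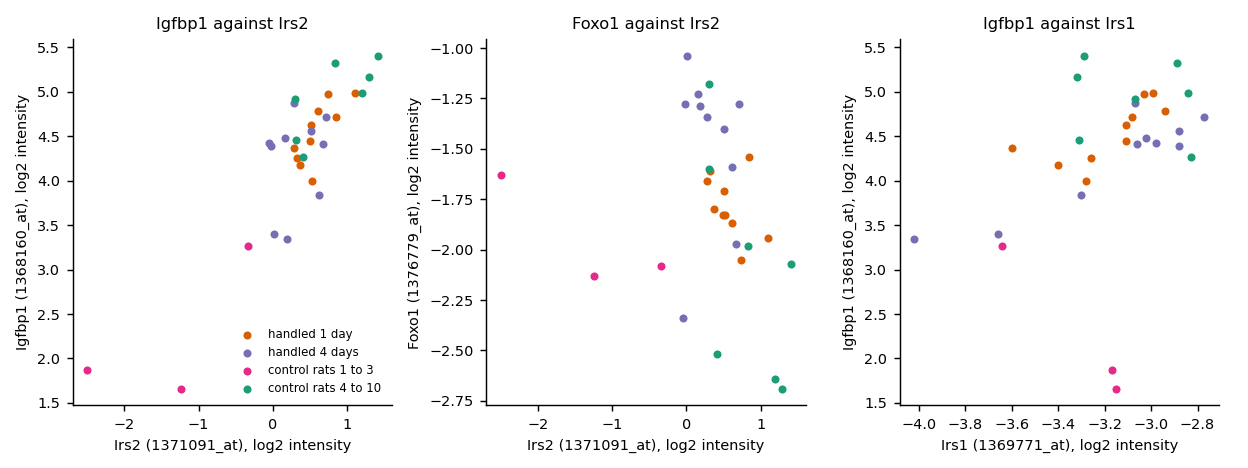
Log2 intensity of Igfbp1 against Irs2 (left), Foxo1 against Irs2 (middle) and Igfbp1 against Irs1 (right), 1 point per rat, coloured by group. Over the 27 rats other than control rats 1 to 3, r was 0.66, -0.57 and 0.61, and the last value fell to 0.27 without the 2 rats farthest from the median of Irs1.

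The genes whose levels were most like those of a member over the 27 rats were picked from 12133 brighter probe sets with 1 symbol and are given as a description. For Igfbp1 these were the transcription factor genes Myc (r = 0.75, rho = 0.77) and Jun (r = 0.75, rho = 0.74) and the phosphatase gene Dusp1 (r = 0.74, rho = 0.66). For Irs2 they were 4933427D14Rikl (r = 0.77, rho = 0.73), the kinase gene Sik1 (r = 0.76, rho = 0.66) and the mitochondrial carrier gene Slc25a25 (r = 0.74, rho = 0.65). Within the groups, r of Irs2 with Sik1 was 0.86 after 1 day, 0.24 after 4 days and 0.94 in control rats 4 to 10. Myc had 0.454, 0.178 and 0.465 in control rats 1, 2 and 3 and 0.307 to 2.26 in the other 27 rats, so the 3 rats were not apart in it as they were in Igfbp1. For Igfbp2 the nearest were the ribosomal protein genes Rpl26 (r = 0.73) and Rpl35a (r = 0.67) and the amino acid transporter gene Slc38a3 (r = 0.69). For Foxo1 they were Alcam (r = 0.81), Rab14 (r = 0.80) and Rbbp6 (r = 0.80), for Insr Cfap126 (r = 0.71), Rap2c (r = 0.68) and Rnf128 (r = 0.68), and for Irs1 Mical2 (r = 0.70), Igfbp1 itself and Pxmp4 (both r = 0.61).

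The rest of the pathway was read from 5 lists. The list of signalling to Akt also holds genes beside and downstream of Akt. Of its 24 measured genes, none passed the test in either comparison with control. Their median log2 fold change was -0.01 for 1 day and 0.01 for 4 days, where all probe sets had a median of 0.00 for both. Of 14 inhibitors of insulin signalling and 17 FoxO factors and targets, none passed, and of 11 insulin-like growth factors, their receptors and other binding proteins, none passed. Gab1, an adaptor of the receptor, had a log2 fold change of 0.20 ± 0.07 in rats handled for 1 day (SE, limma, adjusted p = 0.324) and 0.10 ± 0.07 after 4 days (adjusted p = 0.623). Prkcz, an atypical protein kinase C, had -0.57 ± 0.18 (adjusted p = 0.289) and -0.49 ± 0.18 (adjusted p = 0.258). Without control rats 1 to 3 a single gene of each of 2 lists passed after 4 days. Prkci, another atypical protein kinase C, had a log2 fold change of 0.27 (adjusted p = 0.0448), against 0.06 (adjusted p = 0.869) with all rats, where control rats 1 to 3 were above the 27 others. Grb10, an inhibitor that binds the receptor, had -0.86 (adjusted p = 0.0606), against -0.30 (adjusted p = 0.758) with all rats, where control rats 1 to 3 were under the 7 other control rats. Its signal was low, with medians of 0.0816 after 1 day, 0.0823 after 4 days and 0.122 in the 10 control rats. The array medians over all probe sets ran from 0.118 to 0.125.

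In control rats 1 to 3, genes that insulin is known to raise stood on the other side from Igfbp1, Igfbp2 and Irs2. In 9 of 10 such genes every one of them was higher than the other 27 rats, and in none were they lower, with a median difference from control rats 4 to 10 of 3.66 on the log2 scale. Srebf1, the regulator of lipid synthesis that insulin induces, had 14.8, 10.7 and 7.75 in the 3 rats, while control rats 4 to 10 had 0.587 to 1.14. Pnpla3, a lipid droplet gene, had 6.03, 22.9 and 4.77, against 0.0444 to 0.0843. The exception was Me1 (malic enzyme), in which rat 1, at 1.67, did not exceed the highest of the 27 rats. Of the 17 FoxO factors and targets, the 3 rats were below the others in Pck1 and Bcl6 and above them in Sesn1, and the list's median difference was -0.22. Pck1, the enzyme of glucose production, had 15.1, 10.8 and 37.8, against 41.2 to 50.7 in control rats 4 to 10, so rat 3 was again nearest to the others.

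Among the inhibitors, Trib3, which binds Akt, was below the other 27 rats in control rats 1, 2 and 3 at 0.199, 0.136 and 0.236, against 0.550 to 0.792 in control rats 4 to 10. Grb10 had 0.0848, 0.0318 and 0.0217, against 0.0901 to 0.198, at a low level. In the list of signalling to Akt, the 3 rats were below the others in Pik3ca and Gab1 and above them in Tsc2 and Prkci. These differences were no larger than 0.69 on the log2 scale. Igf2, at 0.0888, 0.0445 and 0.0677 against 0.131 to 0.255, was the 1 of 11 genes in the growth factor list that was apart, at a low level. The 5 lists were chosen with earlier results of these data known.

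**Figure D4:**
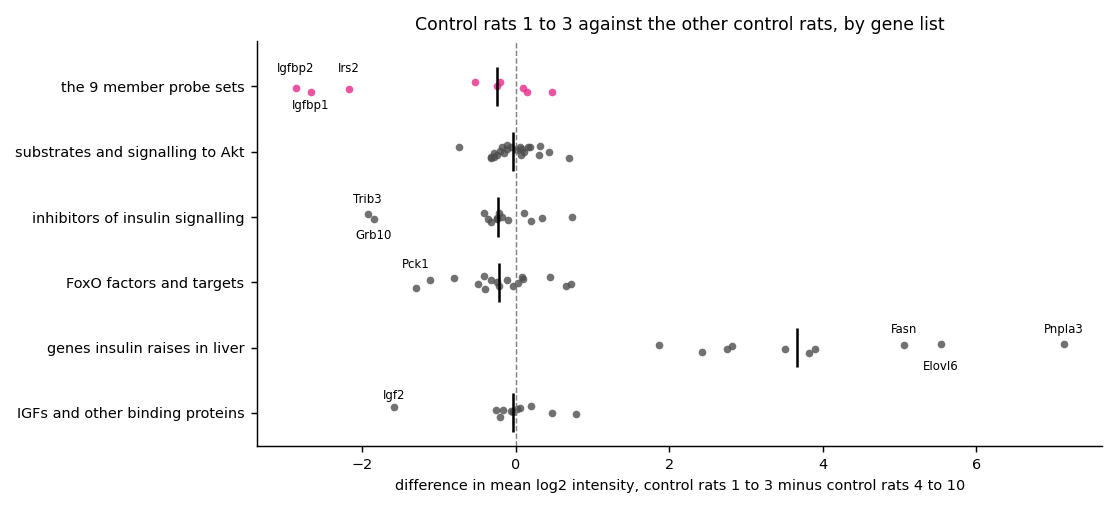
Difference in mean log2 intensity between control rats 1 to 3 and control rats 4 to 10, 1 point for each member probe set (top) or list gene, with the median of each row as a bar. Igfbp2, Igfbp1 and Irs2 lie at -2.87, -2.67 and -2.18, and the genes that insulin raises in liver have a median of 3.66.

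In the handled rats the median over the genes that insulin raises was -0.69 (1 day) and -0.56 (4 days) in log2 fold change when all control rats were used, and 0.24 (1 day) and 0.41 (4 days) against control rats 4 to 10. Scd, a fatty acid desaturase, was the 1 gene of the 10 to pass with all rats, and it fell by 2.45 on the log2 scale after 4 days (adjusted p = 0.0908). Its intensities were 0.428, 1.50 and 2.62 (lowest, median, highest) after 4 days, with 41.8, 53.5 and 41.6 in the 3 control rats that stood apart and 1.08 to 8.69 in the 7 others. Against control rats 4 to 10 its value was -1.28 (adjusted p = 0.288). In that comparison Fasn, Srebf1 and Acly passed, with log2 fold changes of 0.88 (adjusted p = 0.00896), 0.79 (adjusted p = 0.0171) and 0.38 (adjusted p = 0.092) after 1 day and of 0.97 (adjusted p = 0.00417), 0.76 (adjusted p = 0.0164) and 0.41 (adjusted p = 0.0448) after 4 days. With all rats the signs were the other way and none passed: the values were -0.64, -0.36 and -0.67 after 1 day (adjusted p of 0.789, 0.857 and 0.657) and -0.55, -0.39 and -0.64 after 4 days (adjusted p of 0.799, 0.813 and 0.603). The 3 control rats left out were above all 27 others in each of these genes, so these calls depend on leaving them out. Fasn, fatty acid synthase, had medians of 0.975 after 1 day and 0.959 after 4 days, and its highest value in control rats 4 to 10 was 0.793. In the same comparison the values of Igfbp1, Igfbp2 and Irs2 were all below 0 after 1 day and after 4 days, and none of them passed.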

How the data were processed

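Liver RNA was hybridised to Affymetrix rat genome arrays, 1 per rat. The deposited values are linear intensities per probe set, which the authors scaled to a mean of 1 on each array (read from the values; the study's methods name Affymetrix GCOS, and its settings are not given in the sources used here). The authors' log10 ratios were not used. The table holds 31099 probe sets, and the 57 Affymetrix controls among them were dropped. Log2 intensities, with no offset added, were fitted by group with lmFit and eBayes of limma 3.58.1 in R 4.3.3, all 3 groups together. Tests were two-sided, with Benjamini-Hochberg adjustment over 31042 probe sets and calls at an adjusted p under 0.1. Correlations used 100000 permutations over 27 rats (Python 3.11.15, scipy 1.17.1), and figures matplotlib 3.10.9. The pipeline was tested on simulated data. Precision is limited by the number of arrays. No 2 arrays were identical (correlations of 0.946 to 0.9755).

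Symbols come from the platform annotation, updated through RefSeq. In lists the brightest probe set stands for a gene. The rule for naming list genes took up to 4 per list with the smallest p of the F test over the groups. It added any gene called with all rats, and the 3 genes most like each member were taken. Pik3ca, Gab1, Tsc2 and Prkcz fall under this rule. Under it too, but not described, are Socs3, Phlpp1, Enpp1, Ide, Mttp, Gadd45a, Crebbp, Pklr, Igfals, Igfbp7 and Ghr, none of which passed. Prkci, Grb10, Srebf1, Fasn and Acly fall outside it and passed without control rats 1 to 3 but not with all rats. They, Trib3, Bcl6, Sesn1 and the cell type markers were named after their values were seen. The members and lists were chosen with earlier results of these data known. Alternatives were an offset of 0.05, quantile normalization, leaving out the dimmest 40% of probe sets, a replicate block, leaving out control rats 1 to 3, only the 2 groups compared, the methods' t-test, the Gapdh ratio as covariate, array weights, and each rat left out in turn, and, chosen after seeing the data, correlations with group means removed.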

Additional observations from a re-analysis of the deposited data

Results flagged for a closer look

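Igfbp2 (1367648_at) in rat 5 handled for 4 days had an intensity of 10.3, while the 9 other rats of that group had 1.26 to 3.64. The gap to the next rat was 0.496 of the group's whole range on the log2 scale, above Dixon's critical value for 10 rats. Of 27 groups examined (9 probe sets in 3 groups) this was the only one. Chance alone flags about 1 in 20 groups, so 1 flag among 27 is no more than chance gives. Without this rat the difference in log2 intensity of Igfbp2 between 4 days and 1 day of handling was -0.08 in place of 0.13, and neither passed the test (limma, adjusted p = 1.00 and 0.996).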

How the results depend on the processing

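No member passed the test with all rats, but Insr 1369051_at passed after 4 days with an offset of 0.05 before log2 (log2 fold change 0.27, limma adjusted p = 0.0894), with quantile normalization (0.37, adjusted p = 0.0936) and without the dimmest 40% of probe sets (0.36, adjusted p = 0.0521). Foxo1 1376779_at passed with the offset (0.49, adjusted p = 0.0942) and without the dimmest probe sets (0.58, adjusted p = 0.0706), so the number of member probe sets called after 4 days was 2, 1 and 2 under these 3 settings and 0 to 2 with single rats left out. The adjusted p of Insr 1369051_at ran from 0.0785 to 0.186 with single rats left out, and that of Foxo1 1376779_at from 0.0423 to 0.213. The dim filter tests fewer probe sets, and for the other settings the cause was not tested. Over all settings other than single rats left out, 221 member values kept their direction and their side of the threshold, 14 turned and 5 newly passed.

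Without control rats 1 to 3 the 1-day log2 fold changes turned to -0.24 for Irs2, -0.40 for Igfbp1, -0.51 for Igfbp2 and 0.12 for Foxo1 1377502_at, and the 4-day values to -0.51 for Irs2, -0.69 for Igfbp1 and -0.38 for Igfbp2. Array weights gave -0.00104 for Igfbp1, -0.07 for Igfbp2 and 0.08 for Foxo1 1377502_at after 1 day, and -0.18 for Irs2 and -0.27 for Igfbp1 after 4 days. With the Gapdh ratio as covariate Irs1 turned to 0.10 after 1 day and 0.14 after 4 days. With single rats left out, values after 1 day ran from -0.08 to 0.02 for Irs1, -0.07 to 0.25 for Foxo1 1375688_at and -0.10 to 0.06 for Foxo1 1377502_at. After 4 days they ran from -0.07 to 0.08 for Irs1, -0.16 to 0.28 for Irs2, -0.16 to 0.25 for Igfbp1, 0.33 to 0.40 for Insr 1369051_at and 0.50 to 0.67 for Foxo1 1376779_at. Between 4 days and 1 day they ran from -0.03 to 0.11 for Irs1 and -0.08 to 0.25 for Igfbp2.

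The number of probe sets called after 1 day (28) was 45 with the offset, 113 without the dimmest probe sets, 102 without control rats 1 to 3, 1 with only the 2 groups, 55 with the methods' t-test, 0 with the Gapdh covariate and 1 to 44 with single rats left out. After 4 days (204) it was 346 with the offset, 490 without the dimmest, 27 with only the 2 groups, 5 with the Gapdh covariate and 86 to 307 with single rats left out. Between 4 days and 1 day the Gapdh covariate gave 1. For rats of the same number in different groups, deviations from the group means had median correlations of 0.0411 to 0.051 over 10 pairs, with 1 of 30 over 0.1. Rats of different numbers were not set beside them, so whether the numbers pair the rats was not settled. A replicate block gave 2 calls after 1 day and 85 after 4 days and turned no member value.

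Without the 2 rats farthest from the median, r turned to -0.11 for Insr and Irs2, -0.10 for Insr and Igfbp1, 0.03 for Insr and Foxo1 and -0.01 for Irs2 and Igfbp2, and was 0.27 for Irs1 and Igfbp1 and -0.47 for Irs2 and Foxo1, no longer past the threshold. With group means removed, r was -0.39 for Irs2 and Foxo1 and turned to -0.07 for Irs2 and Igfbp2 and 0.05 for Igfbp2 and Foxo1. Within control rats 4 to 10, r of Irs1 and Igfbp1 turned to -0.21. There r also turned for Insr with Irs2 (-0.7), Igfbp1 (-0.57) and Foxo1 (0.4) and for Irs1 with Irs2 (-0.2). For Igfbp2 it turned with Irs2 (-0.53), Igfbp1 (-0.42) and Foxo1 (0.08). None of these other pairs had passed the test over the 27 rats. Signal limits Irs1 and Foxo1 1375688_at, which were above their array's median in 11 and 0 of 30 rats.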
